A study of Mus musculus with 4 samples.

Results

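This report describes 48 mouse genes of late cell division, chosen by symbol from the 51905 genes of the deposited tables: 18 regulators of the G2/M transition, 10 genes of condensin and chromosome structure, 13 spindle genes and 7 cytokinesis genes. Each of the 48 symbols matched 1 row, and all 48 genes passed the filter on low values, a mean of at least 10 counts over the libraries of each line, which left 11928 genes to compare. RNA was sequenced from CT26 and MC38, mouse colorectal cancer lines grown in culture, after infection with a lentivirus that expresses a short hairpin RNA. The control carried lenti-shGFP, against green fluorescent protein, and the knockdown carried lenti-shmaurka-1, a single hairpin against Aurora-A. The labels give both lines as colon and wild type in genotype, CT26 as a fibroblast and MC38 as an epithelial cell. RNA was harvested 48 h after seeding, and by the methods of the study all infected cells, controls included, had passed through puromycin selection. Each of the 4 combinations of line and hairpin was 1 library, without replicates, so the hairpin cannot be told apart from the library. The question put to the data is how these genes stood in the knockdown library against the shGFP library of the same line.

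Entry into mitosis is driven by Cdk1 bound to cyclin B, which is held back by the kinase Wee1 and released by Cdc25 phosphatases. Aurora-A, the targeted kinase, acts upstream of this switch through Plk1 and also builds the spindle with partners such as Tacc3. Condensin then compacts the chromosomes, the anaphase-promoting complex marks securin and cyclin B for destruction, and the central spindle and contractile ring divide the cell. Most of these genes are transcribed in late S phase, G2 and mitosis under B-Myb, FoxM1 and the MuvB complex, so their RNA is abundant in dividing cells and low in resting cells.

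For Aurka itself, 5724 fragments were counted in the CT26 control and 1093 in the CT26 knockdown. In MC38 the counts were 2300 and 413. The log2 fold change was -2.28 in CT26 (95% counting interval -2.38 to -2.19) and -2.44 in MC38 (-2.60 to -2.29), so the targeted transcript was low in both libraries labelled as knockdown. A fold change here is the ratio of estimated counts after TMM scaling (edgeR's trimmed mean of M-values), with 1 count added to each library. The counting intervals are exact conditional binomial intervals on whole fragments. They set 1 library against another, not a condition against another, and hold counting error alone, since amplified fragments without molecular identifiers are not independent molecules. The libraries held 22207768 to 23752269 fragments, and a single gene of the 48 had between 323 and 16250. The cell type labels were set against marker lists. Among 6 epithelial markers, Epcam and Cldn7 had at most 1 fragment in every library and Cdh1 at most 6, while the list summed to 1544 and 1515 fragments in the shGFP and shmaurka-1 libraries of CT26, nearly all from Krt18, and to 42 and 39 in MC38. The label of MC38 as an epithelial cell therefore goes against its markers. Of 6 colon epithelial markers, Cdx1 and Muc2 were at 0 in every library, and the list summed to 13 to 45 fragments. The 8 fibroblast markers summed to 19681 to 34375 fragments, led by Vim with 12373 to 15826. Their sum was high in both lines, so it does not set CT26, labelled a fibroblast, apart from MC38. The 5 leukocyte markers summed to 87 to 153 fragments, almost all from the macrophage marker Cd68, with Ptprc at 0 to 3.

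The promoters of these genes are shown first. A window of 300 bases, 250 before and 50 after the start of transcription, was found for 41 of the 48 genes in the RefSeq table for GRCm38.p6. None was found for Cdc25c, Foxm1, Pbk, Wee1, Smc4, Cdca2 and Dlgap5. The windows were searched on both strands for TTTGAA and TTCGAA, forms of the cell cycle homology region read by MuvB, and for CCAAT, the letters read by NF-Y. No other form of the region was searched. On the printed strand a match can also appear as TTCAAA or ATTGG, whereas TTCGAA reads the same on both strands. TTTGAA was in the windows of 26 of the 41 genes (63.4%), against 20.2% of the 27025 genes of the table and 14.2% of the 8498 genes that were also compared here. TTCGAA was in 4 (9.76%), against 1.80% of the 27025 genes and 2.60% of the 8498, an order kept for the shares that follow. Either form was in 29 (70.7%), against 21.7% and 16.35%, and CCAAT was in 29 (70.7%), against 41.1% and 44.0%. Both kinds of letters stood together in 24 genes (58.5%), against 8.61% and 7.04%. A match is a description of the letters and not a measured binding site. The genes were chosen by symbol, so these shares describe the list and not the libraries. Any link between the letters and a change was not tested. The 5 genes with the homology region letters and the largest change in CT26 among those described in full are printed below. Beside them are Ccnb1 and Cks2, whose windows hold CCAAT and neither searched form of the homology region. Each run is 140 bases, 120 before to 20 after the start, from 5′ to 3′ on the gene's strand, with the searched letters in capitals.
Cdc25b, chr2:131186828-131186967, plus strand: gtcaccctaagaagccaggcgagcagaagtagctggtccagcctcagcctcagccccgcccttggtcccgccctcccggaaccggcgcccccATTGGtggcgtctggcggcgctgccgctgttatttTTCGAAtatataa
Fbxo5, chr10:5805446-5805585, minus strand: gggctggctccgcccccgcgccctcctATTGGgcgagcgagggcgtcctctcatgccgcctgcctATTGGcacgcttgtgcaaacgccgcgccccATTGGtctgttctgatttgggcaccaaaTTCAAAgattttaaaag
Cep55, chr19:38054921-38055060, plus strand: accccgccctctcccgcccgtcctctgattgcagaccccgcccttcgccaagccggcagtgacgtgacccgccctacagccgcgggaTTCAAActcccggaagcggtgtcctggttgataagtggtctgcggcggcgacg
Mki67, chr7:135716360-135716499, minus strand: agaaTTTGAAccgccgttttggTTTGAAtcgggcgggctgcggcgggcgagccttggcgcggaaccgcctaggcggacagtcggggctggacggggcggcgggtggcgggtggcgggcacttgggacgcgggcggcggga
Hmmr, chr11:40733418-40733557, minus strand: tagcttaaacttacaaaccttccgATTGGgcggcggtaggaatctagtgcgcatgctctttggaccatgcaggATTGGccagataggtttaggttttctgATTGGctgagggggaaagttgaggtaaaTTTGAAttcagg
Ccnb1, chr13:100786467-100786606, minus strand: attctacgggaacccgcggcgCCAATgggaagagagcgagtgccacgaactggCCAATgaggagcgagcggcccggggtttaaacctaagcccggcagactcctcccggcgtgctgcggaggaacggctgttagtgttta
Cks2, chr13:51645112-51645251, plus strand: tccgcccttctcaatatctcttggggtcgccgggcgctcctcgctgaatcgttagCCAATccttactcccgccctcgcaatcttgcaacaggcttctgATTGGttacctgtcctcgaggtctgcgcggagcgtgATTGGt

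The homology region letters of Cdc25b, Fbxo5 and Hmmr stood next to the start of transcription, those of Cep55 upstream of the printed start but after the other start that the table gives, and those of Mki67, which had 2 copies of TTTGAA, at the far end of the printed stretch. For the 29 genes with either form the median log2 change was 0.63 in CT26 and -0.08 in MC38, and 17 of them were more than 1.5-fold higher in CT26, against 2.94% of the 11928 genes compared. The 12 genes with neither searched form had medians of 0.48 and -0.14, and 5 of them were more than 1.5-fold higher in CT26. The ranges of the 2 sets overlapped in CT26, from 0.19 to 0.93 with the letters and from 0.25 to 0.75 without. Ccnb1, at 0.75, was the highest of the genes without them, though other forms of the region were not searched.

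In CT26 all 48 genes were higher in the knockdown library and 0 lower, against 46.1% and 53.9% of all genes compared. In MC38 they lay close to no change, with 15 higher and 33 lower, against 51.0% and 49.0%, and 12 and 36 when scaled by total counts. The median log2 fold change of the 48 was 0.60 in CT26, or 1.52-fold, and -0.09 in MC38, or 0.939-fold, whereas the median of the 11928 genes compared was -0.02 and 0.01. By the thresholds of the study, 26 of the 48 were more than 1.5-fold higher in CT26, against 2.94% of all genes compared, and 0 were under 0.6-fold, against 2.68%. In MC38, 0 of the 48 passed 1.5-fold, against 2.57%, and 0 were under 0.6-fold, against 0.998%. The counting interval lay above no change for all 48 in CT26, against 19.9% of all genes compared, and below it for 0, against 23.2%. In MC38 it lay below no change for 24, against 21.3%, above for 6, against 23.5%, and spanned no change for 18. In bulk RNA, a larger share of cells in G2 and mitosis cannot be told apart from more of each RNA per cell.

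**Figure D1:**
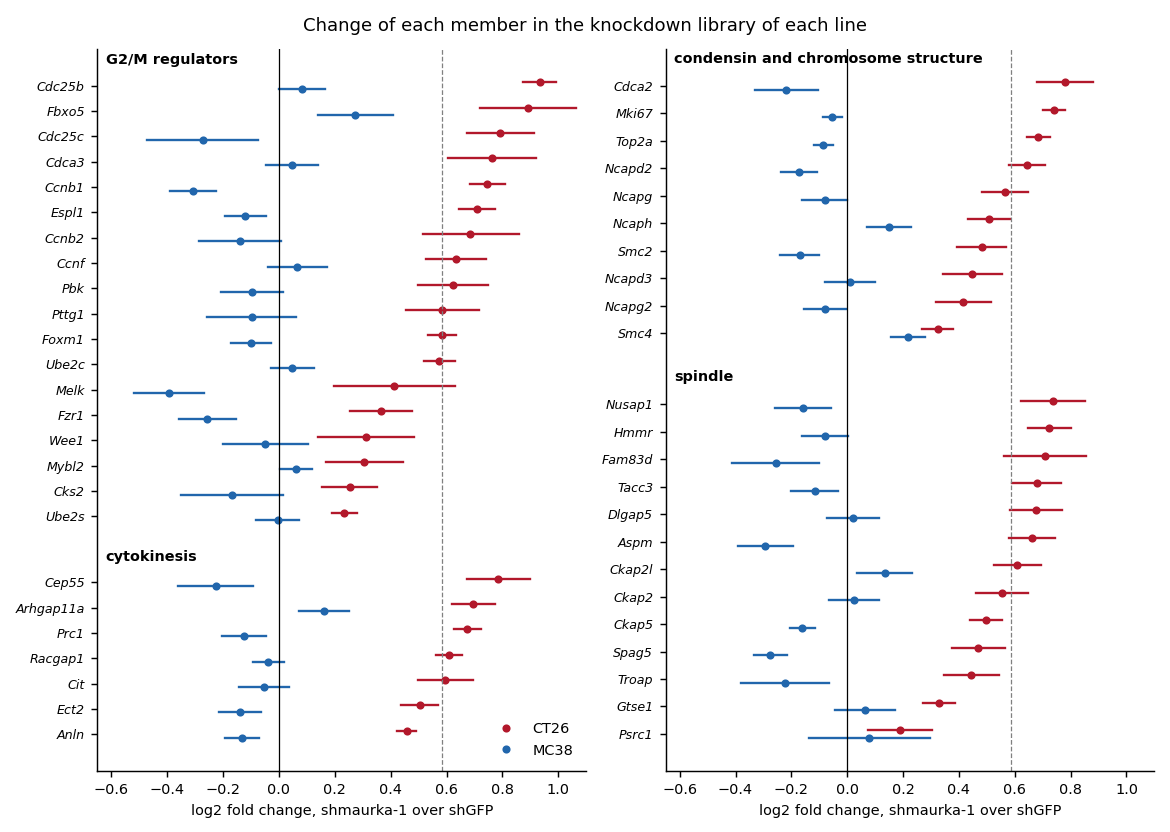
Log2 fold change (shmaurka-1 over shGFP) of each of the 48 genes by subgroup, in CT26 (red) and MC38 (blue), with 1 library per condition. Points are the ratios of the libraries, bars the 95% counting intervals, the solid line no change and the dashed line 1.5-fold: every CT26 point lies to the right of 0, from 0.19 to 0.93, and the MC38 points lie between -0.39 and 0.27.

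The 4 subgroups had similar medians in CT26. The log2 fold change was 0.60 for the G2/M regulators, 0.54 for condensin and chromosome structure, 0.61 for the spindle genes and 0.61 for the cytokinesis genes. Of these, 10 of 18, 4 of 10, 7 of 13 and 5 of 7 were more than 1.5-fold higher. In MC38 the medians were -0.10, -0.08, -0.12 and -0.13, in the same order. Without the genes at a shared locus, they were -0.036 for condensin and chromosome structure and -0.029 for the spindle genes. That of the cytokinesis genes was then 0.06, with only Racgap1 and Arhgap11a left. The plot of fold changes shows the separation of the lines gene by gene, which is widest for Cdc25c and Ccnb1 and narrowest for Smc4 and Psrc1.

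Among the regulators of mitotic entry, Cdc25b and Cdc25c, the phosphatases that activate Cdk1, were among the most raised in CT26. Cdc25b (ENSMUSG00000027330, GRCm38 chr2:131146323-131198497 in the files) had 3631 fragments in the CT26 control and 6454 in the CT26 knockdown, with 2273 and 2348 in the MC38 libraries in the same order, which is kept for the genes that follow. The log2 fold change was 0.93 in CT26 (0.88 to 0.99), the highest of the 48, and 0.08 in MC38, where the interval spans no change. Cdc25c had 912 and 1469 fragments in CT26, with 467 and 377 in MC38, a log2 fold change of 0.79 (0.67 to 0.91) and of -0.27 (-0.47 to -0.07). The pair thus stood together in CT26 and apart in MC38. Ccnb1 (ENSMUSG00000041431, chr13:100778649-100786570), cyclin B1, had 3376 and 5270 fragments in CT26, with 2685 and 2117 in MC38. Its log2 fold change of 0.75 in CT26 (0.68 to 0.81) stands beside -0.31 in MC38 (-0.39 to -0.22), the second lowest of the 48 there. Ccnb2, the other B cyclin of the list, had 467 and 699 fragments in CT26, with 808 and 716 in MC38, and log2 fold changes of 0.69 (0.52 to 0.86) and -0.14, the latter with an interval across no change. The inhibitory kinase Wee1 had 524 and 605 fragments in CT26, with 727 and 686 in MC38, a log2 fold change of 0.31 (0.14 to 0.48) and of -0.05 (-0.20 to 0.10). It was therefore higher in CT26 by less than the activating phosphatases and the cyclins. Cks2, a small subunit that binds cyclin-dependent kinases, had 1557 and 1726 fragments in CT26, with 531 and 461 in MC38, and log2 fold changes of 0.25 (0.15 to 0.35) and -0.17 (-0.35 to 0.01). Cdca3, an F-box-like protein that helps to clear Wee1, was at 0.76 in CT26 and 0.05 in MC38, and Ccnf, the F-box cyclin, at 0.63 and 0.07.

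Of the transcription factors of the G2/M programme, Mybl2 stood below the median of the 48 in CT26 and Foxm1 close to it. Foxm1 (FoxM1) had 5361 and 7476 fragments in CT26, with 3265 and 2972 in MC38, a log2 fold change of 0.58 (0.53 to 0.64) and of -0.10 (-0.17 to -0.03). Mybl2 (B-Myb) had 811 and 932 fragments in CT26, with 4716 and 4803 in MC38. The log2 fold changes were 0.30 in CT26 (0.17 to 0.44) and 0.06 in MC38 (0.0034 to 0.12). The 2 factors had opposite signs in MC38, where Mybl2 lay close to no change, at 0.03 when scaled by total counts. Among the kinases of this subgroup, Pbk was at 0.62 in CT26 and -0.10 in MC38. Melk had 323 and 400 fragments in CT26, the fewest of the 48, with 1202 and 893 in MC38. It stood at a log2 fold change of 0.41 in CT26 (0.20 to 0.63) and -0.39 in MC38 (-0.52 to -0.27), the lowest of the 48 there.

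The genes around the anaphase-promoting complex differed among themselves. Fbxo5 (ENSMUSG00000019773, chr10:5799159-5805600), or Emi1, an inhibitor of the complex, had 442 and 763 fragments in CT26, with 846 and 998 in MC38. It was higher in both lines, at a log2 fold change of 0.89 in CT26 (0.72 to 1.06) and 0.27 in MC38 (0.14 to 0.41), the highest of the 48 in MC38. Fzr1, the activator of the complex at mitotic exit and in G1, had 1206 and 1444 fragments in CT26, with 1775 and 1450 in MC38, and log2 fold changes of 0.36 (0.25 to 0.48) and -0.26 (-0.36 to -0.16). The inhibitor was therefore the more raised of the pair in CT26, and in MC38 the pair moved apart. The ubiquitin-conjugating enzymes of the complex also differed from each other. Ube2s had 8119 and 8883 fragments in CT26, with 2742 and 2666 in MC38, a log2 fold change of 0.23 (0.19 to 0.28), the lowest of this subgroup in CT26, and of -0.01 (-0.08 to 0.07). Ube2c was at 0.57 in CT26 and 0.05 in MC38. Espl1, separase, was at 0.71 and -0.12, and its inhibitor Pttg1, securin, at 0.59 and -0.10. In this subgroup the files place Ccnf, Cdc25b, Cdc25c, Foxm1, Mybl2, Cks2, Ube2c, Ube2s, Melk, Fzr1 and Wee1 at a locus shared with another gene, so that their counts are uncertain. In RefSeq, the only one of these with a protein-coding gene across its span was Foxm1, with Tex52.

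Condensin and its neighbours on the chromosome had the lowest subgroup median in CT26, with no test made between subgroups. Ncapd2, a subunit of condensin I, had 3353 and 4873 fragments in CT26, with 4278 and 3705 in MC38, a log2 fold change of 0.64 (0.58 to 0.71) and of -0.17 (-0.24 to -0.11). The other subunits of condensin I were at 0.56 in CT26 and -0.08 in MC38 for Ncapg, and at 0.51 and 0.15 for Ncaph. The condensin II subunits among the 48 were at 0.45 and 0.01 for Ncapd3, and at 0.42 and -0.08 for Ncapg2. Ncaph2, the condensin II counterpart of Ncaph, which is not one of the 48, had 3843 and 4045 fragments in CT26, with 3375 and 3066 in MC38, a log2 fold change of 0.18 and of -0.10. In these libraries each condensin I subunit therefore had a larger value in CT26 than each condensin II subunit, a difference that was not tested. Ncaph2 was added after its value was seen, and it shares a locus with another gene, so its count is uncertain. The paired ATPases that both complexes share did not move alike in MC38. Smc4 had 4821 and 5614 fragments in CT26, with 4055 and 4598 in MC38, and log2 fold changes of 0.32 (0.27 to 0.38), the lowest of the subgroup, and 0.22 (0.16 to 0.28). Smc2 was at 0.48 in CT26 and -0.17 in MC38.

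The most raised genes of the subgroup in CT26 were not condensin. Cdca2, which brings a phosphatase to chromatin at mitotic exit, had 1325 and 2117 fragments in CT26, with 1397 and 1172 in MC38, a log2 fold change of 0.78 (0.68 to 0.88) and of -0.22 (-0.33 to -0.10), the lowest of the subgroup in MC38. Mki67 (ENSMUSG00000031004, chr7:135689783-135716361), the Ki-67 proliferation marker that coats mitotic chromosomes, had 8152 and 12672 fragments in CT26, with 14362 and 13497 in MC38. These give log2 fold changes of 0.74 in CT26 (0.70 to 0.78) and -0.05 in MC38 (-0.09 to -0.02). Top2a (ENSMUSG00000020914, chr11:98992942-99024189), the topoisomerase that untangles sister chromatids, had 7487 and 11193 fragments in CT26, with 15108 and 13891 in MC38, and log2 fold changes of 0.68 (0.64 to 0.73) and -0.09 (-0.12 to -0.05). Both of these genes had more fragments in the MC38 control than in the CT26 control, whereas their MC38 changes were small beside the CT26 ones. Ncapd2, Ncapg, Smc2, Smc4, Top2a and Mki67 share a locus in the files with another gene, and Ncapg overlaps the protein-coding Lcorl in RefSeq.

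Among the spindle genes, Nusap1, Hmmr and Fam83d were the most raised in CT26. Nusap1, which bundles microtubules near chromosomes, had 1030 and 1596 fragments in CT26, with 1708 and 1493 in MC38, a log2 fold change of 0.74 (0.62 to 0.85) and of -0.16 (-0.26 to -0.06). Hmmr, the hyaluronan receptor that also holds the spindle poles, had 2224 and 3418 fragments in CT26, with 2493 and 2303 in MC38, and log2 fold changes of 0.72 (0.65 to 0.80) and -0.08, with an interval across no change in MC38. Fam83d, which recruits a casein kinase to the spindle, had 629 and 956 fragments in CT26, with 748 and 611 in MC38, a log2 fold change of 0.71 (0.56 to 0.86) and of -0.26 (-0.41 to -0.10). All 3 were below 0 in MC38. At the other end stood Psrc1, a microtubule regulator, with 1213 and 1286 fragments in CT26 and 352 and 363 in MC38. Its log2 fold change of 0.19 in CT26 (0.07 to 0.30) was the lowest of the 48, and it was 0.08 in MC38 (-0.14 to 0.30). Aspm, which focuses the spindle poles, had 1996 and 2937 fragments in CT26, with 1921 and 1530 in MC38, and log2 fold changes of 0.66 (0.58 to 0.74) and -0.29 (-0.39 to -0.20), the lowest of the subgroup in MC38. Ckap2l had 1990 and 2825 fragments in CT26, with 1643 and 1759 in MC38, a log2 fold change of 0.61 (0.53 to 0.69) and of 0.13 (0.04 to 0.23), the highest of the subgroup in MC38.

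The remaining spindle genes lay between these. Tacc3, a substrate of Aurora-A that crosslinks kinetochore fibres, was at 0.68 in CT26 and -0.12 in MC38, and its partner Ckap5, a microtubule polymerase, at 0.50 and -0.16. Dlgap5, which stabilises the same fibres, was at 0.68 and 0.02, and Ckap2 at 0.55 and 0.02. Spag5, or astrin, was at 0.47 and -0.28, and Troap at 0.44 and -0.22. Gtse1, a microtubule-binding protein, was at 0.33 and 0.06. Aurora-A's partners Tacc3 and Ckap5 thus lay on either side of the subgroup median in CT26. Nusap1, Ckap2l, Ckap5, Tacc3 and Troap share a locus in the files with another gene, and the spans of Nusap1 and Ckap5 overlap the protein-coding Oip5 and F2 in RefSeq.

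The cytokinesis genes covered the narrowest range in CT26. Cep55 (ENSMUSG00000024989, chr19:38055024-38074425), which gathers the abscission machinery at the midbody, had 1058 and 1696 fragments in CT26, with 993 and 828 in MC38. At log2 fold changes of 0.78 in CT26 (0.67 to 0.90) and -0.23 in MC38 (-0.36 to -0.09), it was the highest and the lowest of the subgroup. Arhgap11a, which switches off RhoA, had 2352 and 3546 fragments in CT26, with 1940 and 2117 in MC38, a log2 fold change of 0.70 (0.62 to 0.77) and of 0.16 (0.07 to 0.25), and was the 1 gene of the subgroup that was higher in MC38. Prc1, the bundler of the central spindle, had 5934 and 8814 fragments in CT26, with 2799 and 2503 in MC38, and log2 fold changes of 0.68 (0.63 to 0.72) and -0.13 (-0.20 to -0.05). Anln, the anillin scaffold of the contractile ring, had 12721 and 16250 fragments in CT26, with 4590 and 4086 in MC38. Its log2 fold change of 0.46 in CT26 (0.42 to 0.49) was the lowest of the subgroup, beside -0.13 in MC38 (-0.19 to -0.07). Racgap1 of centralspindlin was at 0.61 and -0.04, Ect2, the activator of RhoA, at 0.50 and -0.14, and the citron kinase Cit at 0.60 and -0.05. The activator and the inhibitor of RhoA thus had the same sign in CT26 and opposite signs in MC38. Prc1, Ect2, Anln, Cit and Cep55 share a locus in the files with another gene, and Prc1 and Anln overlap the protein-coding Rccd1 and 9530077C05Rik in RefSeq.

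Levels between genes were compared in FPKM, the authors' deposited measure of fragments relative to the length of the transcript and the depth of the library. The median FPKM of the 48 genes was 27.9 in the CT26 control and 41.8 in the CT26 knockdown, and 31.5 and 31.7 in the MC38 libraries. Their summed FPKM in the knockdown library was 1.48 times that of the control in CT26 and 0.957 times in MC38. Ube2s had the highest level in CT26, 348 and 427 FPKM, and Top2a in MC38, 133 and 127 FPKM. The lowest was Melk in CT26, at 5.83 and 7.86 FPKM, and Troap in MC38, at 8.22 and 6.89 FPKM. By subgroup, the median level in shGFP was highest for the cytokinesis genes, at 67.3 FPKM in CT26 and 38.8 FPKM in MC38. Over the 48 genes as a whole, the highest and lowest gene of each line was the same in its knockdown library, and the CT26 points of the plot of levels lie above the diagonal over its whole range.

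**Figure D2:**
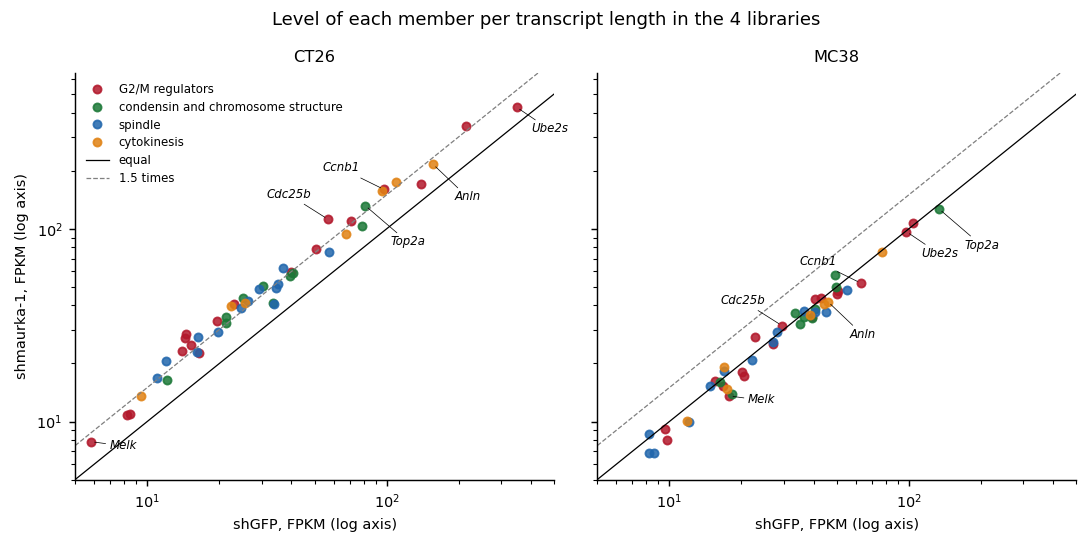
FPKM of each of the 48 genes in shmaurka-1 against shGFP, both on log axes, for CT26 (left) and MC38 (right), coloured by subgroup, with 1 library per axis. The solid line marks equal levels and the dashed line 1.5 times: the CT26 points lie above the solid line at every level from 5.83 to 348 FPKM in shGFP, and the MC38 points lie along it.

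In the shGFP libraries the 48 genes were split between the lines in shares close to or under those of all genes compared. Of the 48 genes, 14 were more than 1.5 times higher in CT26 shGFP than in MC38 shGFP, against 29.8% of all genes compared, and 9 were more than 1.5 times higher in MC38 shGFP, against 26.0%. The median log2 ratio of the control libraries was 0.11 over the 48 genes and 0.08 over all genes compared. The ratio was largest for Psrc1, 2.10 on the log2 scale, followed by Gtse1 at 2.03, Ube2s at 1.88 and Cks2 at 1.87. At the other end, Mybl2 had a log2 ratio of -2.22, Melk of -1.58, Cdca3 of -1.46 and Spag5 of -1.34. A ratio between lines rests on 1 library each and was not tested.

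**Figure D3:**
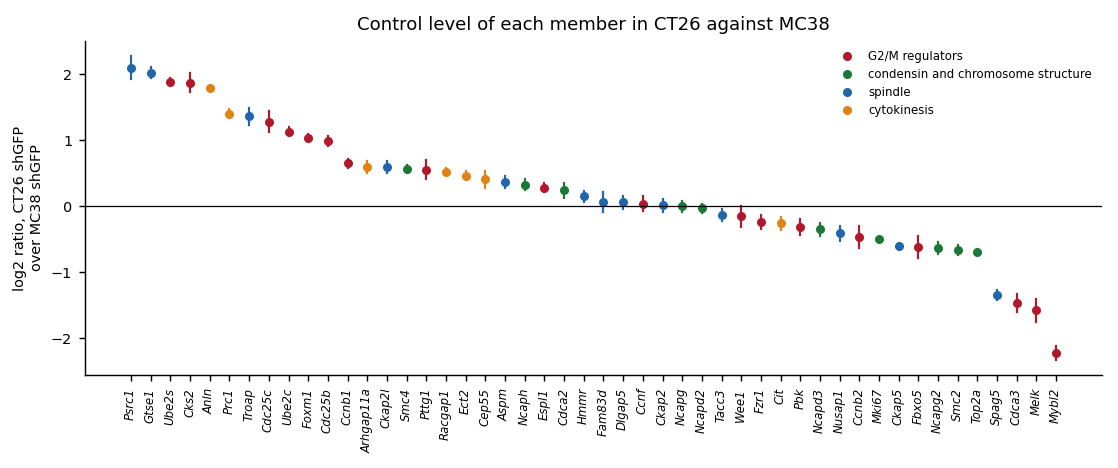
Log2 ratio of CT26 shGFP over MC38 shGFP for each of the 48 genes, in decreasing order and coloured by subgroup, with 95% counting intervals as bars and 1 library per line. The ratios run from 2.10 for Psrc1 to -2.22 for Mybl2, and the 4 subgroups are spread along the order.

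The change in CT26 was larger than that in MC38 for all 48 genes, and the 95% counting interval of the difference lay above 0 for 47, with Psrc1 the exception, against 17.2% of all genes compared, and below 0 for 0, against 21.9%. The median difference of the log2 fold changes, CT26 minus MC38, was 0.66 over the 48 genes and -0.03 over all genes compared. It was largest for Cdc25c, at 1.06 (0.84 to 1.29), Ccnb1, at 1.05 (0.95 to 1.16), and Cep55, at 1.01 (0.84 to 1.18). It was smallest for Smc4 (0.11, 0.03 to 0.19) and Psrc1 (0.11, -0.13 to 0.35). With 4 libraries the interaction of line and hairpin leaves no residual degree of freedom, so the difference between the lines could not be tested across libraries. In direction, 33 genes were higher in CT26 and lower in MC38, against 19.3% of all genes compared. The counting intervals of 24 lay above no change in CT26 and below it in MC38, against 3.15%. Those of 6 lay above no change in both lines, against 8.1%: Mybl2, Fbxo5, Ncaph, Smc4, Ckap2l and Arhgap11a. These 6 come from all 4 subgroups. Mybl2 passed by the least, and with scaling over the genes compared, chosen after seeing the data, 5 members lay above no change in MC38.

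**Figure D4:**
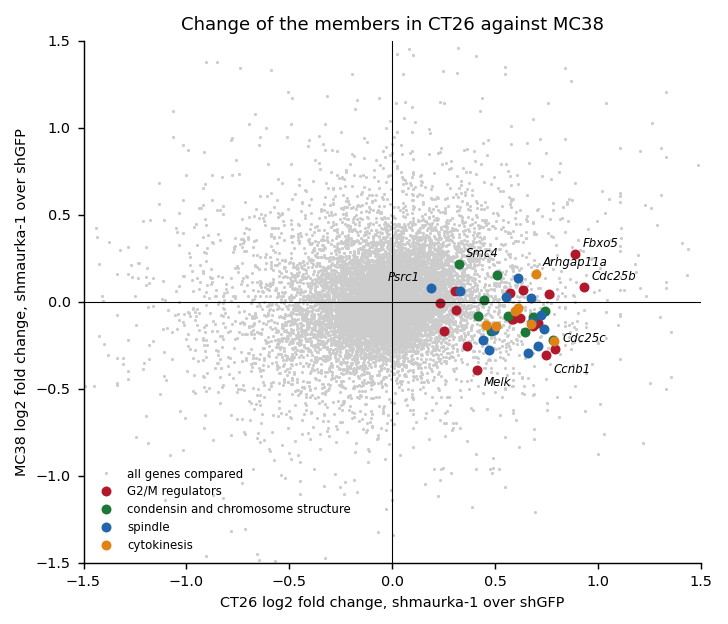
Log2 fold change (shmaurka-1 over shGFP) in MC38 against CT26 for the 48 genes, coloured by subgroup, over the 11928 genes compared (grey), 65 of which lie outside the axes. All 48 points lie to the right of 0 in CT26 while in MC38 they lie between -0.39 and 0.27, on both sides of 0.

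A change common to both lines was tested with cell line as a block. By edgeR's quasi-likelihood test with Benjamini-Hochberg adjustment over all 11928 genes, 10 of the 48 were called higher, against 1.67% of all genes tested, and 0 lower, against 1.12%. At an unadjusted p under 0.05 the counts were 32 higher, against 6.56% of all genes tested, and 0 lower, against 5.76%. The called genes were Arhgap11a, Cdc25b, Cdca3, Ckap2l, Dlgap5, Fbxo5, Mki67, Ncaph, Top2a and Ube2c. The common log2 fold change was 0.58 for Fbxo5 (edgeR's quasi-likelihood test with Benjamini-Hochberg adjustment, adjusted p = 0.00131), 0.52 for Cdc25b (adjusted p = 5.54e-05), 0.44 for Arhgap11a (adjusted p = 0.00283) and 0.35 for Mki67 (adjusted p = 0.00907). In MC38 alone, Mki67 and Top2a were below no change and the intervals of Cdc25b, Cdca3, Dlgap5 and Ube2c spanned it, so for these 6 genes the common change is the mean of a higher value in CT26 and a value near or below 0 in MC38. The test had 1 residual degree of freedom and took its spread from all genes. With DESeq2 in place of edgeR, with a filter at a mean of 50 counts or without the block, 0 of the 48 were called. At an unadjusted p under 0.05 these fits had 9, 18 and 0 of the 48, all higher, against 497, 1177 and 13 of all genes in either direction (4.17%, 11.7% and 0.109%).

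The other genes of the pathway, taken from lists written by function with earlier results of these data known, were higher in CT26 only in part. Of 12 mitotic entry partners, 4 were more than 1.5-fold higher in CT26, against 2.94% of all genes compared, and the median was 0.32 there and 0.01 in MC38. The 4 were Mastl, the Greatwall kinase, at 0.83 and -0.19, Bora, the Aurora-A activator, at 0.73 and -0.07, Plk1, the kinase Aurora-A switches on, at 0.62 and 0.02, and Ccna2, cyclin A2, at 0.61 and 0.11. Of 10 cytokinesis partners, 4 passed in CT26, with medians of 0.35 and -0.10. These were the kinesins Kif14, at 0.90 and -0.11, and Kif20a, at 0.87 and -0.12, and the chromosomal passenger genes Aurkb, at 0.84 and -0.14, and Incenp, at 0.63 and -0.16. Aurkb, the paralogue of the targeted gene, was thus higher in the CT26 knockdown library. For the remaining lists few or no genes passed, which is near the share of all genes compared. Of 16 genes of the anaphase-promoting complex only the mitotic activator Cdc20 passed in CT26, at 0.71 and 0.20, and the list medians were 0.02 and 0.04. None of 9 MuvB and DREAM genes passed, with medians of 0.11 and -0.08, though 4 had a counting interval above no change in CT26. None of 12 cohesin and condensin partners passed, with medians of 0.08 and -0.08, though 6 had such an interval, against 19.9% of all genes compared. In MC38 no gene of these lists passed 1.5-fold, and none was under 0.6-fold in either line. Of the genes named here, Plk1, Ccna2, Kif14, Kif20a and Cdc20 share a locus with another gene, so their counts are uncertain.

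**Figure D5:**
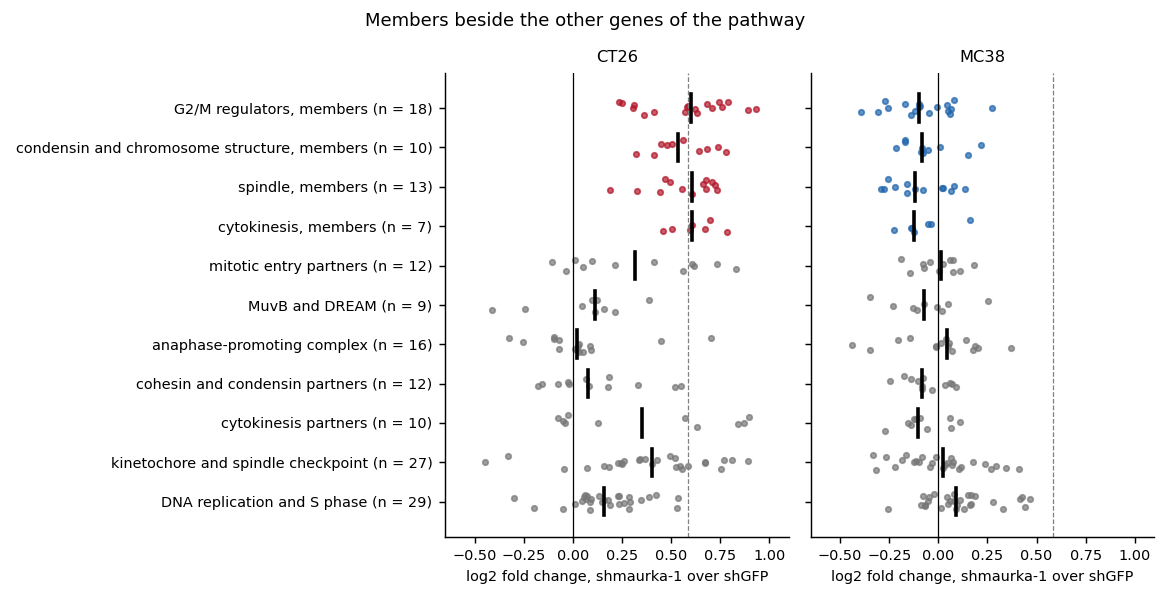
Log2 fold change (shmaurka-1 over shGFP) of each gene in the 4 subgroups (coloured) and in the other lists of the pathway and of comparison (grey), for CT26 (left) and MC38 (right), with 1 library per condition. Thick marks are medians, the solid line no change and the dashed line 1.5-fold: the subgroup medians lie between 0.54 and 0.61 in CT26, and those of the other lists between 0.02 and 0.40.

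Lists of comparison were taken from the kinetochore and from S phase. The 27 genes of the kinetochore and spindle checkpoint had a median of 0.40 (log2 fold change) in CT26 and 0.02 in MC38, and 7 of them were more than 1.5-fold higher in CT26, against the same 2.94%. The 29 of 31 genes of DNA replication and S phase that passed the filter had medians of 0.16 and 0.09, and 0 were more than 1.5-fold higher in either line. The median of the 48 genes was therefore above that of the kinetochore genes and of the replication genes in CT26, and below both in MC38, with no test made between lists.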

How the data were processed

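RNA-seq was done on 4 libraries, 1 for each combination of line and hairpin, from a strand-specific kit sequenced by a service company. Values were deposited by the authors as an estimated count and as FPKM, per gene and library. The submitters' processing notes name Trimmomatic 0.36, HISAT2, Cuffdiff, Cufflinks 2.2.1 and GRCm39, without roles. The loci of the files overlapped the gene of the same name for 19977 of 20031 genes (99.7%) in a GRCm38 annotation and for 9.65% in a GRCm39 annotation, so coordinates are given as GRCm38. The deposited counts had been scaled per library, with a step between low values of 1.06 in CT26 shGFP, 1.17 in CT26 shmaurka-1, 0.885 in MC38 shGFP and 0.901 in MC38 shmaurka-1. Divided by the step, 97.1% to 97.7% of nonzero values were whole within 0.05, and these recovered fragments gave the counting intervals. Whether counting used the strand is not given in the sources used here, so genes at a shared locus are uncertain.

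Fold changes are ratios of deposited counts after TMM scaling over all genes (edgeR 4.0.16, R 4.3.3), with 1 count added. The common test used the deposited counts rounded to whole numbers. It was tested on simulated data with changes larger than those called among the members, so recovery of changes of that size was not simulated. The study's own fold thresholds, 1.5 and 0.6, were used. Alternatives covered scaling, added count, filter, unit, threshold, members at shared loci and the model (DESeq2 1.42.0, limma 3.58.1). Scaling over the genes compared was added after the data were seen, and so was the search for motifs near the start. The other computations used Python 3.11.15, numpy 2.4.6, pandas 2.3.3, scipy 1.17.1 and matplotlib 3.10.9.

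The members and lists were chosen with earlier results of these data known. All members are named. Fragments in every library are given for the 3 largest and the smallest change in CT26 and the largest and smallest change in MC38 of each subgroup, and for Ccnb1, Ccnb2, Foxm1, Mybl2, Cks2, Wee1, Fzr1, Top2a, Mki67 and Ncapd2. From the other pathway lists, genes past a threshold are named, and Ncaph2 and the comparison of lists were added after their values were seen. Sgo1 was not matched in the files, and a planned search of protein sequences was not run because no protein table was at hand. Samples were grouped by their labels, and cell type marker lists are described in the opening of the results.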

Additional observations from a re-analysis of the deposited data

Results flagged for a closer look

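These results stand here because the values of the 2 lines had opposite signs, although the MC38 medians lay close to 0. With 1 library per condition this difference was not tested, and each value is the log2 fold change in CT26 minus that in MC38.

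The difference of the medians was 0.69 for all 48 genes, 0.70 for the G2/M regulators, 0.62 for condensin and chromosome structure, 0.73 for the spindle genes and 0.74 for the cytokinesis genes. For the cytokinesis genes the opposite sign was lost without the genes at a shared locus, where the MC38 median was 0.06.

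For 24 single genes the counting interval lay above no change in CT26 and below it in MC38, against 3.15% of all genes compared. Only 7 of them have a locus of their own in the files (Ccnb1, Espl1, Ncapg2, Cdca2, Spag5, Aspm and Fam83d), and the counts of the other 17 are uncertain. Ncapg and Ncapg2 only just passed, with upper bounds in MC38 of -0.00011 and -0.0054. Among the G2/M regulators the difference was 1.06 for Cdc25c, 1.05 for Ccnb1, 0.83 for Espl1, 0.80 for Melk, 0.68 for Foxm1 and 0.62 for Fzr1. In condensin and chromosome structure it was 1.00 for Cdca2, 0.82 for Ncapd2, 0.795 for Mki67, 0.77 for Top2a, 0.65 for Smc2, 0.64 for Ncapg and 0.50 for Ncapg2. Among the spindle genes it was 0.96 for Fam83d, 0.95 for Aspm, 0.89 for Nusap1, 0.80 for Tacc3, 0.75 for Spag5, 0.67 for Troap and 0.66 for Ckap5. Among the cytokinesis genes it was 1.01 for Cep55, 0.80 for Prc1, 0.64 for Ect2 and 0.59 for Anln.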

How the results depend on the processing

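The median change of the 48 genes (log2) stayed between 0.60 and 0.66 in CT26 and between -0.12 and -0.08 in MC38 over 12 alternatives. The subgroup medians kept their sign except the cytokinesis median in MC38, which ranged from -0.15 to 0.06, the latter without the members at a shared locus. In MC38 the spindle median ranged from -0.145 to -0.029 and that of condensin and chromosome structure from -0.109 to -0.036. Of 1056 values of single members under an alternative, 26 moved past their counting interval. The sign changed in 6, all in MC38 and close to 0 (Ncapd3, and with total counts also Ckap2 and Dlgap5). When a mean of 50 counts was required, 160 genes stood above 1.5-fold and 85 under 0.6-fold in CT26, and 99 and 29 in MC38. Without a filter the counts were 2539 and 3037 in CT26, and 3089 and 2821 in MC38. From FPKM, with 1 added, 203 genes stood above and 77 under in CT26, and 127 and 27 in MC38. With the reciprocal of 1.5 as the lower threshold, 545 genes in CT26 and 234 in MC38 were below it. Without the 27 members at a shared locus, 14 members were above 1.5-fold in CT26, all 21 left had an interval above no change there, and in MC38 3 lay above and 7 below, which follows in part from the smaller list. With all 48 members, 25 (total counts, or 5 counts added) to 30 (DESeq2 size factors, or upper quartile) were above 1.5-fold in CT26, and 28 with scaling over the genes compared, chosen after seeing the data.

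Calls of the common test changed with the model and with the filter. With cell line as the block it called 10 members, and without the block 0 members and 0 genes in either direction were called, with 13 genes at an unadjusted p under 0.05. DESeq2 called 0 members, 17 genes higher and 12 lower. The filter at 50 counts gave 0 members, 63 genes higher and 38 lower, total counts gave 5 members of 320 genes called and no filter 6 of 266. limma-voom called 8 of 267. The cause was not tested. Leaving out a library was not possible, because each condition is 1 library. These depths resolve a member's log2 change within a counting interval 0.07 to 0.43 wide, and the spread between cultures is unknown.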

Other observations

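Across the 48 genes the log2 fold change in CT26 bore little relation to that in MC38, with r at -0.05 (Pearson) and rho at -0.09 (Spearman). This is a description over genes, which share their 4 libraries and are not independent replicates. The homology region letters lay within 60 bases before to 50 after the start of transcription in 23 of the 41 genes with a promoter window (56.1%), against 6.79% of the 27025 genes of the RefSeq table and 4.81% of the 8498 genes that were also compared in these libraries. That narrower window was chosen after seeing the data.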
